A study of Homo sapiens with 14 samples.

Results

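The GIMAP family comprises GTPases of immunity-associated proteins, and 7 of its genes were followed here among 58440 genes quantified by RNA sequencing. The members, GIMAP1, GIMAP2, GIMAP4, GIMAP5, GIMAP6, GIMAP7 and GIMAP8, were found by matching the gene identifiers, without their version, to symbols of the GENCODE annotation of GRCh38. The family was selected on its level in pure Jurkat against pure HEK cells in these libraries, so its values in that contrast are given as a description, without a test. HEK-293T cells come from human embryonic kidney, carry the large T antigen and grow attached, and were kept in DMEM. Jurkat is a line from a human T cell leukemia that grows in suspension, and was grown in RPMI. No cell received a treatment or a genetic change for the study, both lines were taken 2 days after a passage, and each line came from 1 source. The 14 libraries fall into 7 conditions of 2 libraries each, with 0%, 20%, 40%, 50%, 60%, 80% and 100% Jurkat cells by number and HEK cells for the remainder. Libraries of the same condition are labelled as technical replicates, so every SD here (n = 2) and every test measures technical spread only.

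GIMAP proteins are small GTP-binding proteins that share a GTPase domain related to a plant protein of the response to bacteria, and several members sit on membranes inside lymphocytes. They are best known in T and B cells, where loss of some members in rodents leads to early death or poor maintenance of lymphocytes. The human genes lie side by side in one tandem cluster, and their presence in a T cell line but not in a kidney line is the kind of pattern on which the study's search for cell-type-specific genes rests.

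Libraries held between 4468822 and 28303668 gene counts, and the smallest belonged to pure Jurkat. Each pure HEK library held fewer ERCC spike-in counts per gene count than any pure Jurkat library, with 122 ± 35.4 gene counts per ERCC count in HEK and 12.2 ± 0.174 in Jurkat. A fixed number of cells went into each mixture, so from the spike-ins alone the lower value of Jurkat cannot be told apart into less RNA per cell and less RNA captured. The paper also reports that total RNA yield correlated with the fraction of HEK cells. It puts mRNA content at about 6 times higher in HEK than in Jurkat cells, a smaller ratio than that of the values above. The deposited file names split the libraries into 2 groups whose meaning is not stated, with 8 libraries in group 1 and 6 in group 2. Both pure Jurkat libraries were in group 1 and both pure HEK libraries in group 2, so line and file-name group cannot be told apart there. The lines matched their labels by markers. All 10 T cell markers were higher in Jurkat, with sums of 2366 and 2784 counts per 1000000 gene counts (CPM) against 5.50 and 2.77 CPM in HEK, and all 7 HEK markers were higher in HEK, at 196 and 210 CPM against 30.4 and 18.2 CPM. Of 5 endothelial markers, PECAM1 was found in Jurkat at 28.8 and 46.7 CPM, and CDH5, VWF, TEK and KDR were at 0 in both Jurkat libraries. Of 3 myeloid markers, none exceeded 0.660 CPM in a pure library.

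All members lie on chromosome 7 of GRCh38, between bases 150450630 and 150750033, an interval of 299.4 kb. In coordinate order these are GIMAP8 (chr7:150450630-150479393), GIMAP7 (chr7:150514872-150521073), GIMAP4 (chr7:150567369-150573953), GIMAP6 (chr7:150625375-150632648), GIMAP2 (chr7:150685697-150693641), GIMAP1 (chr7:150716606-150724284) and GIMAP5 (chr7:150722253-150750033). GIMAP6 is on the minus strand and the other 6 members are on the plus strand. GIMAP1 and GIMAP5 overlap by 2032 bases, so that reads of the shared stretch are divided between them by the authors' estimation, and their separate levels are less certain than the others.

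Promoter sequence is shown because the members are neighbours that were present in one line and nearly absent from the other, and because all 7 of their windows hold the same short motif. RefSeq windows (GRCh38.p14), from 250 bases before the start of transcription to 50 after it, were found for 7 of 7 members. AGGAAG, the core recognised by many ETS factors, occurred on either strand in the windows of all 7 members and in 33.6% of 35115 windows of all genes. Within the last 70 bases before the start, a limit set after the positions were seen, it was found in 7 of 7 members and in 9.71% of all windows. The windows of the members belong to neighbouring genes of 1 family and are not independent, so these shares are a description only. AGATAA (the GATA core) was in 0 member windows and 10.3% of all, and TGTGGT (RUNX) was in 0 and 13.1%. CAGATG (an E-box) was in the windows of GIMAP2 and GIMAP6 and 14.7% of all, and TATAAA was in that of GIMAP7 and 11.5% of all. Each motif was searched on both strands, no match overlapped another motif, and a match is a description of letters and not of binding. The stretches that end at the base before the start follow, 5′ to 3′ on the gene's strand, with AGGAAG or its reverse complement CTTCCT in capitals. They run 100 bases, or 30 for GIMAP6, whose earlier bases lie in an untranslated exon of another annotated transcript.
GIMAP8, plus strand, chr7:150450530-150450629: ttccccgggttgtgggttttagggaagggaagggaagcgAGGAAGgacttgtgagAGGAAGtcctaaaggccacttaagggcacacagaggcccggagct
GIMAP7, plus strand, chr7:150514772-150514871: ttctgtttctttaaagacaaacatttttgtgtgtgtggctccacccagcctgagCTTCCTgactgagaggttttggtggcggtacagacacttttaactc
GIMAP4, plus strand, chr7:150567290-150567389: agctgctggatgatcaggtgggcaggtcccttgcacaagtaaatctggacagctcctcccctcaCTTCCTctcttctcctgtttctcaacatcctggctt
GIMAP6, minus strand, chr7:150632386-150632415: tctgactcAGGAAGgccggtgctcctaccc
GIMAP2, plus strand, chr7:150685606-150685705: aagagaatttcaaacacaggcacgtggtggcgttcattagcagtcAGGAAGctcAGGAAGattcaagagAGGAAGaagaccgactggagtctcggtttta
GIMAP1, plus strand, chr7:150716513-150716612: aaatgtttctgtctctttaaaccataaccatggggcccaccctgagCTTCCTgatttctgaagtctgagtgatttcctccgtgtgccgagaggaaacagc
GIMAP5, plus strand, chr7:150737318-150737417: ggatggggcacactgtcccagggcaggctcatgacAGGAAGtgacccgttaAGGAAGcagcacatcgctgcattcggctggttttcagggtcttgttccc
GIMAP2 had 3 matches in its stretch, GIMAP8 and GIMAP5 had 2 each, and the 4 others had 1 each. In the stretches of GIMAP7, GIMAP4 and GIMAP1, the match read CTTCCT on the gene's own strand, whereas in those of the other members it read AGGAAG. The window of GIMAP6 also held CTTCCT just past the start, outside its stretch. The RefSeq starts of GIMAP4, GIMAP6, GIMAP2, GIMAP1 and GIMAP5 lie inside the annotated genes, downstream of the first base of their longest extent. The last bases of the stretches of GIMAP4, GIMAP2 and GIMAP1 therefore fall within the annotated gene. Those of GIMAP6 and GIMAP5 fall within it completely. GC content of the 7 windows ranged from 40.3% to 50.7%, and the median over all windows was 58.7%.

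The family as a whole was present in pure Jurkat and nearly absent from pure HEK. Summed over the 7 members, the 2 pure Jurkat libraries had 840 and 932 CPM, a mean of 886 ± 64.5 CPM, or 0.0886% of gene counts. The pure HEK libraries held 3 and 7 family counts, and no member had more than 3 counts in either of them. The ratio of the pooled rates of both lines was 2199, with an exact 95% interval of 1195 to 4587 that covers counting error only. Over all 15794 genes tested with edgeR's quasi-likelihood test between the lines, 19% were higher in Jurkat at an adjusted p under 0.05 and 24.2% were higher in HEK. Without composition scaling, the 3002 and 3825 genes behind these shares became 2386 and 4665. Both Jurkat libraries lay above both HEK libraries for 27.6% of the genes tested, and for all 7 members, which the choice of the family fixes.

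GIMAP7 was the most abundant member by counts. This protein can raise the GTPase activity of other members. It stood at 414 and 492 CPM in pure Jurkat, a mean of 453 ± 54.8, and at 1 count in each pure HEK library, or 0.106 and 0.0660 CPM. The ratio of its pooled rates was 5652 with an exact 95% interval of 1564 to 46680, wide because only 2 HEK counts stand behind it. GIMAP4, a member linked to T cell death and cytokine release, had 302 and 330 CPM in pure Jurkat, a mean of 316 ± 19.9. It had 2 and 3 counts in pure HEK, 0.212 and 0.198 CPM, and a ratio of 1568 with an exact interval of 671 to 4834. The values of both lines were far apart for these 2 genes, and GIMAP7 exceeded GIMAP4 in both Jurkat libraries on the CPM scale.

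GIMAP1 and GIMAP5, the overlapping pair at the high-coordinate end, came next. GIMAP1, needed for mature T and B cells in mice, had 36.0 and 40.1 CPM in pure Jurkat, with 0 and 1 counts in HEK. Its ratio of 945 had an exact interval of 169 to 37431. GIMAP5, whose loss in rats causes lymphopenia, had 43.4 and 31.4 CPM, and was at 0 in both HEK libraries. Against the 3 counts per HEK library that a count of 0 allows, at most 0.317 CPM, GIMAP5 was at least 118-fold higher in Jurkat. By CPM, the 2 Jurkat libraries ordered GIMAP1 and GIMAP5 in opposite ways, so this scale did not tell their levels apart. The read-through gene GIMAP1-GIMAP5 was given 0 counts in all 14 libraries.

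GIMAP2, a protein of lipid droplets, had 23.3 and 22.2 CPM in pure Jurkat, with 0 and 2 counts in HEK, a ratio of 279 and an exact interval of 76.4 to 2317. GIMAP6, which takes part in autophagy, had 19.9 and 14.3 CPM and was at 0 in HEK, at least 54.0-fold lower than in Jurkat by the same floor. GIMAP8, the member with several GTPase domains, was barely detected, with 6 and 9 counts, or 1.34 and 1.45 CPM, in pure Jurkat. It was at 0 in HEK, so that Jurkat was at least 4.40-fold higher.

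Dividing by effective length changed the order of the members. The paper primed cDNA with oligo-dT, and whether counts grow with transcript length in these libraries was not tested. On the TPM scale, counts divided by effective length and scaled to a common total over genes, GIMAP7 had 393 ± 41.1 and GIMAP4 381 ± 16.8 in pure Jurkat, and the values of their libraries overlapped. GIMAP2 at 18.7 ± 0.309 TPM and GIMAP5 at 17.7 ± 2.15 TPM also overlapped. GIMAP1 followed at 9.91 ± 0.320 TPM, GIMAP6 at 5.32 ± 1.33 TPM and GIMAP8 at 0.356 ± 0.0135 TPM, and these 3 overlapped neither each other nor the members above them. GIMAP1 thus stood above GIMAP2 by CPM and below it by TPM, and which of them is more abundant is not settled. Neighbouring genes could be close or far apart in level. GIMAP7 and GIMAP4, which lie next to each other, had the 2 highest levels on both scales, whereas GIMAP8, on the other side of GIMAP7, had the lowest.

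Other annotated genes inside the interval were close to silent. Of 16 genes of the tables there, 9 were not members, and none of the 9 had more than 2 counts in any library. GIMAP3P, a pseudogene inside GIMAP5, had 1 count in 1 library with 60% Jurkat cells. ALDH7A1P3 had 1 count in each pure Jurkat library and 2 in a library with 80% Jurkat cells. BET1P1 had 1 count in each of 4 libraries, TRPC6P3 had 2 in 1 library and the unnamed ENSG00000271582 had 2 in 1 library.

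**Figure D1:**
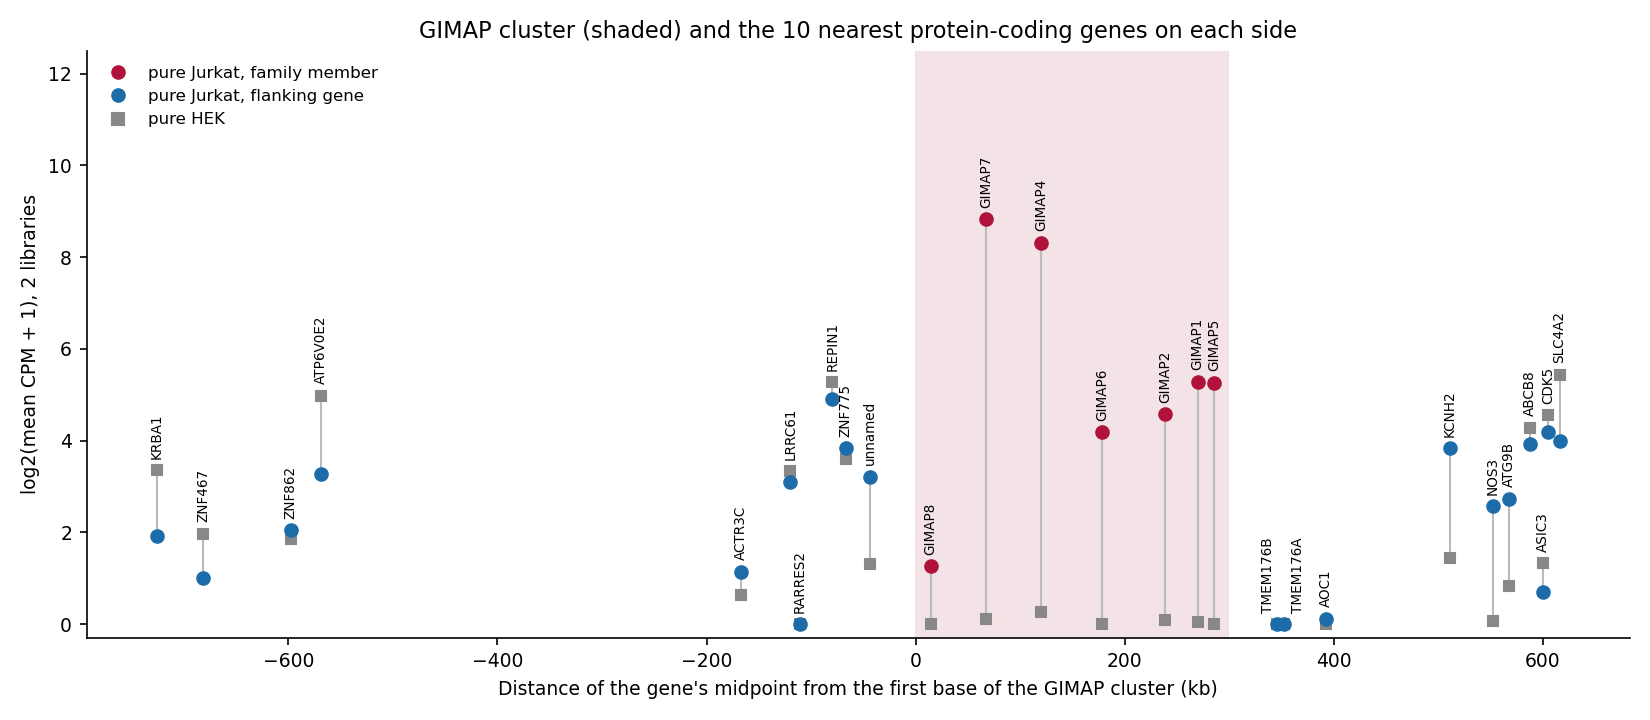
Mean level of the 7 members and of 20 flanking genes in the pure lines, as log2(mean CPM + 1) of 2 libraries, against the distance in kb of each gene's midpoint from the first base of the cluster. Circles stand for pure Jurkat (members in red, flanking genes in blue) and grey squares for pure HEK. All 7 members have their HEK square near 0, while flanking genes have their circles above, below or level with their squares.

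Whether the difference between the lines continued past the cluster was examined in the 10 nearest protein-coding genes on each side, chosen by position. Of these 20 genes, 14 had enough counts for the test, 4 were higher in Jurkat and 2 were higher in HEK, with 8 not past the threshold and a median log2 difference (Jurkat minus HEK) of -0.09. The median over all genes tested was -0.07. By direction, 4 of 14 higher in Jurkat stood beside the 19% of all genes, and 2 of 14 higher in HEK beside the 24.2%. The 14 tested genes therefore showed no common direction, but those called differed in distance. The 4 higher in Jurkat lay 38160, 194928, 240984 and 262176 bases from the cluster. The 2 higher in HEK lay farther away, at 307177 and 559426 bases. Tested genes at 52000, 76586 and 112474 bases were not past the threshold. Whether direction depends on distance was not tested.

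The nearest gene on the low-coordinate side, the unnamed coding gene ENSG00000284691 at 38160 bases from GIMAP8, rose from 1.69 and 1.25 CPM in HEK to 8.06 and 8.54 CPM in Jurkat (log2 difference 2.73 ± 0.317 SE, edgeR adjusted p = 0.00306). On the other side, TMEM176B, 41252 bases beyond GIMAP5 and coding for a membrane protein of myeloid cells, was at 0 counts in all 4 pure libraries. TMEM176A beside it was also at 0, and AOC1, an amine oxidase gene, had 1 count in 1 pure Jurkat library. The next expressed gene, KCNH2, a potassium channel gene 194928 bases away, was higher in Jurkat at 14.5 and 11.9 CPM against 1.48 and 1.91 CPM (log2 difference 3.15 ± 0.295, adjusted p = 0.00169).

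NOS3, the endothelial nitric oxide synthase, was higher in Jurkat at 6.60 and 3.31 CPM against 0.106 and 0 CPM (adjusted p = 0.00433). ATG9B, an autophagy gene that overlaps NOS3 on the opposite strand, was higher at 4.59 and 6.68 CPM against 0.952 and 0.594 CPM (adjusted p = 0.00502). The libraries mark strand, but the strand setting of the counting is not stated, so reads of this pair may be shared. The 2 genes higher in HEK were SLC4A2, an anion exchanger gene (44.8 and 39.8 CPM in HEK, 14.3 and 15.4 CPM in Jurkat, adjusted p = 0.00873), and ATP6V0E2, a gene of the vacuolar proton pump (29.5 and 31.7 CPM in HEK, 8.96 and 8.22 CPM in Jurkat, adjusted p = 0.00465). SLC4A2 was not called without the first HEK library, and the other 5 calls held in every setting tried. KRBA1 and ZNF467, chosen after their values were seen, were also called higher in HEK with library totals only and with no filter on low counts, and KRBA1 also without the second Jurkat library.

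Across the mixtures, the family was higher the more Jurkat cells were mixed in, but not in proportion to them. The summed level was 36.2 and 23.1 CPM with 20% Jurkat cells, 75.9 and 54.3 CPM with 40%, 120 and 70.9 CPM with 50%, 131 and 152 CPM with 60%, and 304 and 344 CPM with 80%. The mean was higher at 6 of 6 steps from pure HEK to pure Jurkat, and among these steps the libraries of neighbouring conditions overlapped between 40% and 50% Jurkat cells only. A rise is what mixing gives any gene nearly absent from HEK, and how many other genes had such steps was not counted. Pure Jurkat had 2.74 times the mean of the mixture with 80% Jurkat cells. With 50% Jurkat cells, the family stood at 13.6% and 8.01% of the pure Jurkat mean.

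GIMAP7 followed this course closely. Its values were 17.0 and 9.34 CPM with 20% Jurkat cells, 43.7 and 26.1 with 40%, 60.0 and 25.4 with 50%, 69.6 and 89.5 with 60%, and 136 and 112 with 80%. GIMAP4 had 15.2 and 8.04 CPM with 20%, 15.4 and 11.4 with 40%, 43.4 and 20.7 with 50%, 39.6 and 33.7 with 60%, and 110 and 181 with 80%. The 2 libraries of a mixture were often apart for these abundant members, as with 50% Jurkat cells, where both genes had over 2 times as many CPM in the first library as in the second.

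By the separation of neighbouring conditions GIMAP1 was the steadiest member, with their libraries apart at all 6 steps. Other genes were not examined for this. It had 1.05 and 1.98 CPM with 20% Jurkat cells, 4.64 and 5.41 with 40%, 5.62 and 6.22 with 50%, 7.34 and 7.03 with 60%, and 18.0 and 14.8 with 80%. GIMAP5 had 1.25 and 1.84 CPM with 20%, 5.58 and 5.10 with 40%, 5.23 and 8.11 with 50%, 7.07 and 8.58 with 60%, and 18.8 and 17.2 with 80%. By CPM, both overlapping genes therefore stayed close to each other along the whole series. By TPM they were further apart, for example at 8.47 and 8.72 for GIMAP5 against 5.11 and 3.41 for GIMAP1 with 80% Jurkat cells. Reads of their shared stretch are divided between them by estimation, and what this adds to their closeness was not tested.

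GIMAP2 had 1.12 and 1.09 CPM with 20% Jurkat cells, 4.29 and 3.86 with 40%, 3.75 and 5.18 with 50%, 4.40 and 8.79 with 60%, and 13.2 and 12.2 with 80%. GIMAP6 had 0.527 and 0.682 CPM with 20%, 2.23 and 2.24 with 40%, 2.05 and 5.12 with 50%, 3.09 and 4.24 with 60%, and 8.60 and 6.33 with 80%. For GIMAP6 the 2 libraries with 50% Jurkat cells spanned the values of the conditions next to them, and for GIMAP2 they overlapped with both of these conditions. GIMAP8 had between 0 and 4 counts in every mixed library, at most 0.284 CPM, which is too few for an order of the mixtures.

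**Figure D2:**
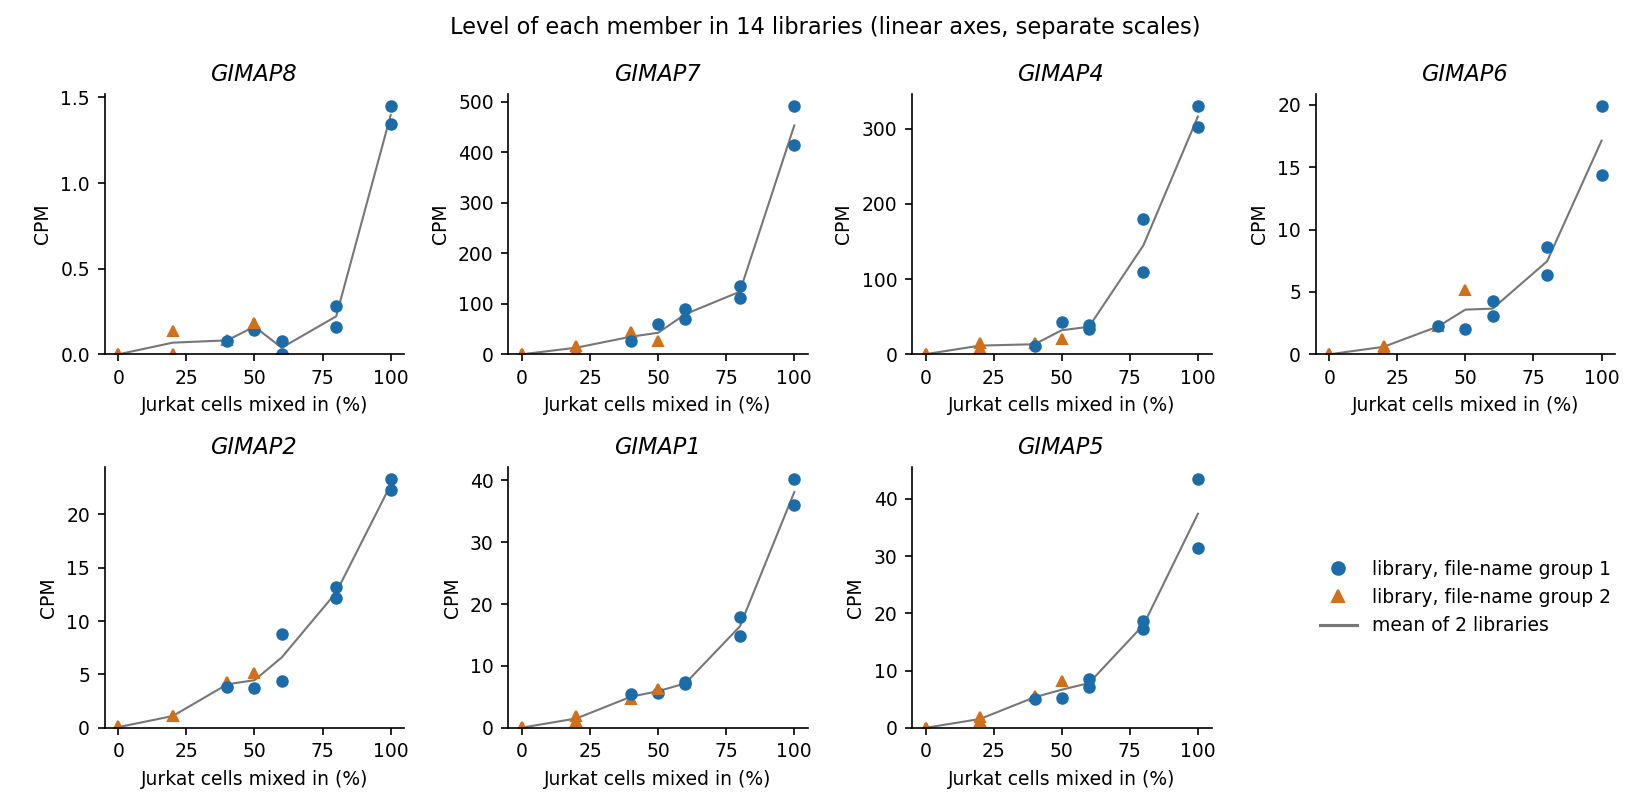
CPM of each member in each of the 14 libraries against the percentage of Jurkat cells, with a separate linear scale in each panel. Points are libraries, blue circles and orange triangles are the 2 groups of file names, and the grey line joins the means of 2 libraries. Every panel climbs most between 80% and 100% Jurkat cells.

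Members of the cluster did not keep a fixed ratio to each other. GIMAP4 and GIMAP7 together made up 85.3% and 88.2% of family counts in the pure Jurkat libraries (95% Wilson intervals 84.1% to 86.3% and 87.4% to 89.0%). In the mixed libraries this share ran from 65.0% (interval 62.2% to 67.7%) in the second library with 50% Jurkat cells to 89.1% (interval 86.2% to 91.4%) in the first with 20%. The first library with 50% Jurkat cells stood at 86.0% (interval 84.8% to 87.2%), so the 2 technical replicates of this mixture differed by more than counting error. These intervals cover counting error only.

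The same appeared when each sum was set against its own pure Jurkat mean. In the second library with 50% Jurkat cells, GIMAP4 and GIMAP7 stood at 6.00% of it and the other 5 members at 21.2%, whereas in the first library they stood at 13.4% and 14.4%. The other 5 members had the higher percentage in 9 of 10 mixed libraries, the exception being the first with 20% Jurkat cells, at 3.39% against 4.19%. With 40% Jurkat cells, the library of file-name group 1 had the lower share from GIMAP4 and GIMAP7 (69.2% against 77.8%), and with 50% that of group 2 had it. No other mixture had libraries of both groups, and an effect of the group was not tested.

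Among genes higher in Jurkat with at most 3 counts in each pure HEK library, the 110 with 10 to 50 CPM in pure Jurkat stood, in the 2 libraries with 50% Jurkat cells, at a median of 14.0% and 20.0% of their pure Jurkat level. The 18 with 100 CPM or more stood at 11.6% and 11.3%. The less abundant genes had the higher median in 10 of 10 mixed libraries, which all rest on the same genes and pure Jurkat levels. Quartile ranges of both sets overlapped in every mixed library. In the first with 50% Jurkat cells they were 10.6% to 17.5% and 9.69% to 15.9%. The lower percentage of the abundant members was thus also seen in the medians of abundant genes outside the cluster. GIMAP8, the least abundant member, did not follow this order, at 11.4% and 20.4% of its pure Jurkat level with 80% Jurkat cells, from 3 and 4 counts.

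**Figure D3:**
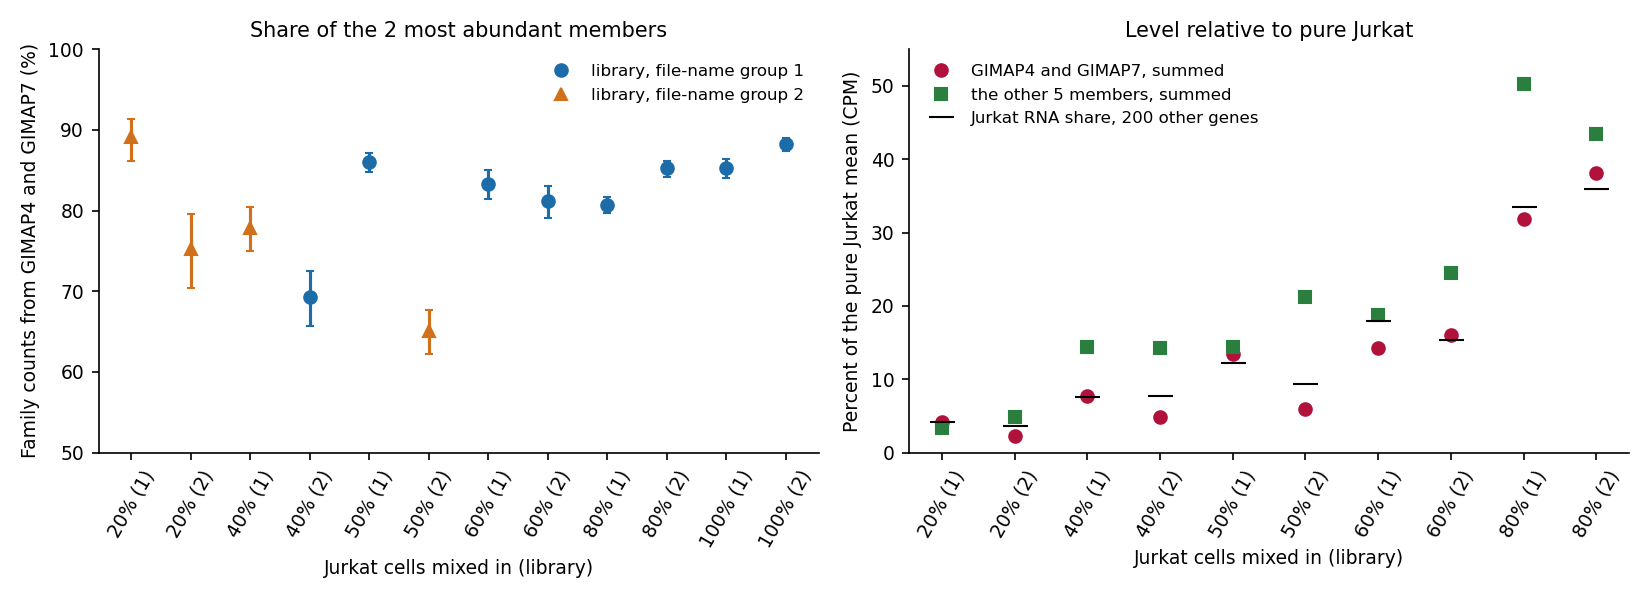
Left, percent of family counts that came from GIMAP4 and GIMAP7 in each library with Jurkat cells, with 95% Wilson intervals and an axis from 50% to 100%. Right, level of these 2 members and of the other 5 in the 10 mixed libraries as a percent of the pure Jurkat mean, with the Jurkat RNA share from 200 other genes as black dashes. The squares of the other 5 members lie above the circles in 9 of 10 libraries.

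The Jurkat share of RNA was read from 200 other genes, the 100 with the smallest p in each direction between the lines. Only genes outside the cluster whose log2(CPM + 1) averaged 5 or more were eligible, a limit that leaves out less abundant genes. The share is the median of the positions of these 200 genes between the pure levels. It was 4.10% and 3.58% with 20% Jurkat cells, 7.61% and 7.67% with 40%, 12.3% and 9.40% with 50%, 17.9% and 15.3% with 60%, and 33.4% and 36.0% with 80%. Single genes scattered widely around it, with quartiles of -0.32% and 31.2% in the second library with 50% Jurkat cells. The summed family level as a percent of pure Jurkat was above this share in 5 of 10 libraries, and the difference ran from -3.10 to 2.79 percentage points with a median of 0.409. Against the RNA share computed instead from the mixed percentages and the spike-ins, which was 2.43%, 6.23%, 9.06%, 13.0% and 28.5% for 20%, 40%, 50%, 60% and 80% Jurkat cells, the family was above in 8 of 10 libraries.

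Each gene was then compared with the level that additive mixing of the 2 pure lines predicts at this share, over the 10 mixed libraries together. Of 17084 genes tested, 6.78% stood above the prediction and 8.8% below it at an adjusted p under 0.05, with a median log2 departure of 0.01. The pure levels entered as known values, so their own error, from 2 libraries a line, is not in these p-values. The same pure levels served in choosing the family, so the members' p-values are not independent of that choice. Of the 6 members with enough counts, 4 stood above the prediction and 0 below it. Beside them, 44.8% stood above among 194 tested genes outside the cluster that were higher in Jurkat with at most 3 counts in each HEK library. The median departure of the 6 was 0.47.

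GIMAP2 had the largest departure, 0.79 ± 0.13 (SE) on the log2 scale, with all 10 of 10 libraries above the prediction (edgeR adjusted p = 0.00149). GIMAP5 stood above by 0.56 ± 0.12 in 9 of 10 libraries (adjusted p = 0.00843), GIMAP6 by 0.55 ± 0.17 in 8 of 10 (adjusted p = 0.0403) and GIMAP1 by 0.40 ± 0.12 in 9 of 10 (adjusted p = 0.0331). GIMAP6 ranged most among these, from -0.39 to 1.65 between libraries. The abundant members did not pass the test, with -0.17 ± 0.12 for GIMAP7 (adjusted p = 0.372, 3 of 10 libraries above) and -0.18 ± 0.15 for GIMAP4 (adjusted p = 0.423, 4 of 10 above). The sign of these 2 departures turned with the RNA share used, to 0.20 and 0.20 with the share from mixed percentages and spike-ins and to 0.00703 and 0.00631 with that from the 100 Jurkat-higher genes, and neither passed the test then. With the share from mixed percentages and spike-ins, the departures of the 4 called members were larger, 1.11 for GIMAP2, 0.88 for GIMAP5, 0.86 for GIMAP6 and 0.73 for GIMAP1. GIMAP8 had too few counts to be tested with the filter used. On 0 to 4 counts a library, it lay below the expected level used in 10 of 10 mixed libraries, with log2 departures from -2.82 to -0.11. In the libraries with 20%, 40% and 50% Jurkat cells this level was the floor of 0.2 CPM, above what additive mixing itself gives. Its place against additive mixing there cannot be read from these values.

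Over the 4 mixed libraries of file-name group 2 and the 6 of group 1, the median departures had the same sign for all 7 members, for example 0.76 and 0.67 for GIMAP2. For GIMAP8, the expected level in the group 2 libraries was the floor of 0.2 CPM. Leaving out 1 library at a time, the number of members above the prediction was 2, 3 or 4. It was 2 without either library with 40% Jurkat cells, without the second with 20%, 50% or 60%, without the first with 80% and without the second pure Jurkat library. GIMAP2 stayed past the threshold in all 14 of these fits, with an adjusted p of at most 0.00521. GIMAP6 and GIMAP1 lost it in 7 of them each, and GIMAP5 in 1. Of 194 genes outside the cluster that were higher in Jurkat with at most 3 counts in each HEK library and were tested, 87, or 44.8%, stood above the prediction, with a median of 0.36. The 4 of 6 members stand beside that share.

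**Figure D4:**
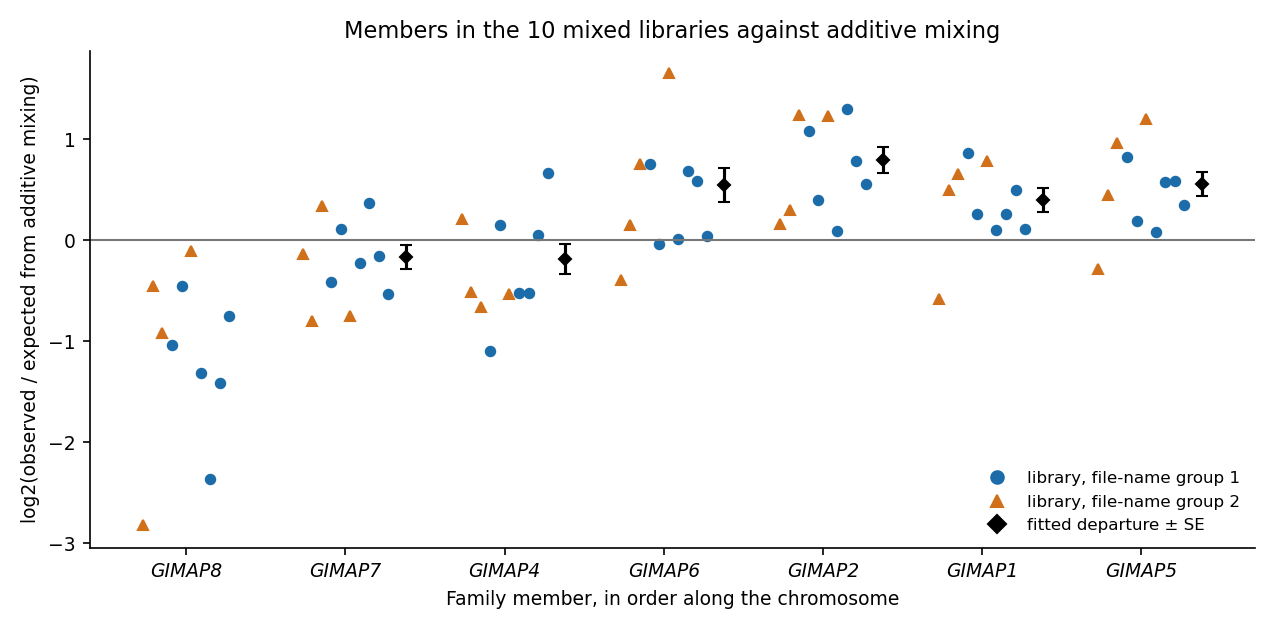
log2 of observed over expected level for each member in the 10 mixed libraries (circles and triangles, the 2 groups of file names, from 20% to 80% Jurkat cells within each gene) and the fitted departure with its SE (black diamonds, 6 members tested). All 10 points of GIMAP2 lie above 0, and those of GIMAP7 and GIMAP4 scatter on both sides. For GIMAP8, the expected level with 20% to 50% Jurkat cells is the floor of 0.2 CPM.

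The genes most like the family were taken as those whose CPM was most nearly a constant multiple of its sum. This follows the idea of mutual linearity but is a simpler measure than the study's, which first scales each gene by its sum and also uses rank correlation. Among 10034 genes outside the cluster whose log2(CPM + 1) averaged 3 or more, the coefficient of determination of a line through the origin over 14 libraries, the smaller of both directions, was highest for ADCYAP1 at 0.994. This gene codes for the neuropeptide PACAP and had 72.0 ± 7.56 CPM in pure Jurkat. PTPN7, a phosphatase of blood cells, followed at 0.992, MYO1G, a myosin of blood cells, at 0.991, TESPA1, which takes part in thymocyte selection, at 0.988, and ITM2A, a membrane protein gene active in thymocytes, at 0.988. Over the 10 mixed libraries alone these values were 0.948, 0.974, 0.897, 0.892 and 0.838. All points share their libraries and depth, and the pure Jurkat libraries carry much of the fit. Of the members themselves, GIMAP7, GIMAP1 and GIMAP4 had 0.984, 0.978 and 0.975 against the sum they belong to, and GIMAP8, GIMAP5, GIMAP2 and GIMAP6 had 0.911, 0.901, 0.889 and 0.882.

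Genes reported to work with GIMAP proteins in survival and autophagy were present in both lines. Of 9 such genes, 9 were tested and 2 were higher in Jurkat (19% of all genes tested), with 0 higher in HEK and a median log2 difference of 0.40. BCL2L1, the gene of the survival protein BCL-XL, had 6.12 and 5.96 CPM in Jurkat against 2.33 and 2.44 CPM in HEK (log2 difference 1.55 ± 0.291, edgeR adjusted p = 0.0118). GSK3B, a kinase gene, had 60.2 and 101 CPM against 34.0 and 45.9 CPM (1.24 ± 0.337, adjusted p = 0.0350). BCL2 did not pass at 17.0 and 10.8 CPM against 4.02 and 8.38 CPM (adjusted p = 0.0578). Neither call held in every setting. BCL2L1 was not called with DESeq2, GSK3B was not called with library totals only or without the second Jurkat library, and neither was called when the first or the second HEK library was left out. In these last fits 1 HEK library stands alone and is assumed to vary like the Jurkat pair, and the calls over all genes fell to 3194 and 3131.

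Transcription regulators of T cells and T cell leukemia that have been tied to the GIMAP locus were all higher in Jurkat. This held for 9 of 9 genes tested, beside the 19% of all genes, with a median log2 difference of 5.50. The list was drawn up for T cells, with earlier results of these data known, so its direction is no independent evidence about the family. ETS1, an ETS factor, had 194 and 475 CPM in Jurkat against 0.106 and 0.265 CPM in HEK (log2 difference 10.83 ± 0.782, edgeR adjusted p = 0.000898). IKZF1, which codes for Ikaros, had 248 and 208 CPM against 0.317 and 0.330 CPM (9.62 ± 0.320, adjusted p = 0.000640). TAL1, a factor often active in T cell leukemia, had 50.7 and 58.2 CPM against 0.317 and 0.132 CPM (8.17 ± 0.403, adjusted p = 0.000640). RUNX1 had 185 and 169 CPM against 2.96 and 2.37 CPM (6.28 ± 0.268, adjusted p = 0.000640), and TCF7, a factor of early T cells, had 688 and 725 CPM against 20.9 and 15.6 CPM (5.50 ± 0.276, adjusted p = 0.000640). Whether any of them bears on the members was not tested.

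**Figure D5:**
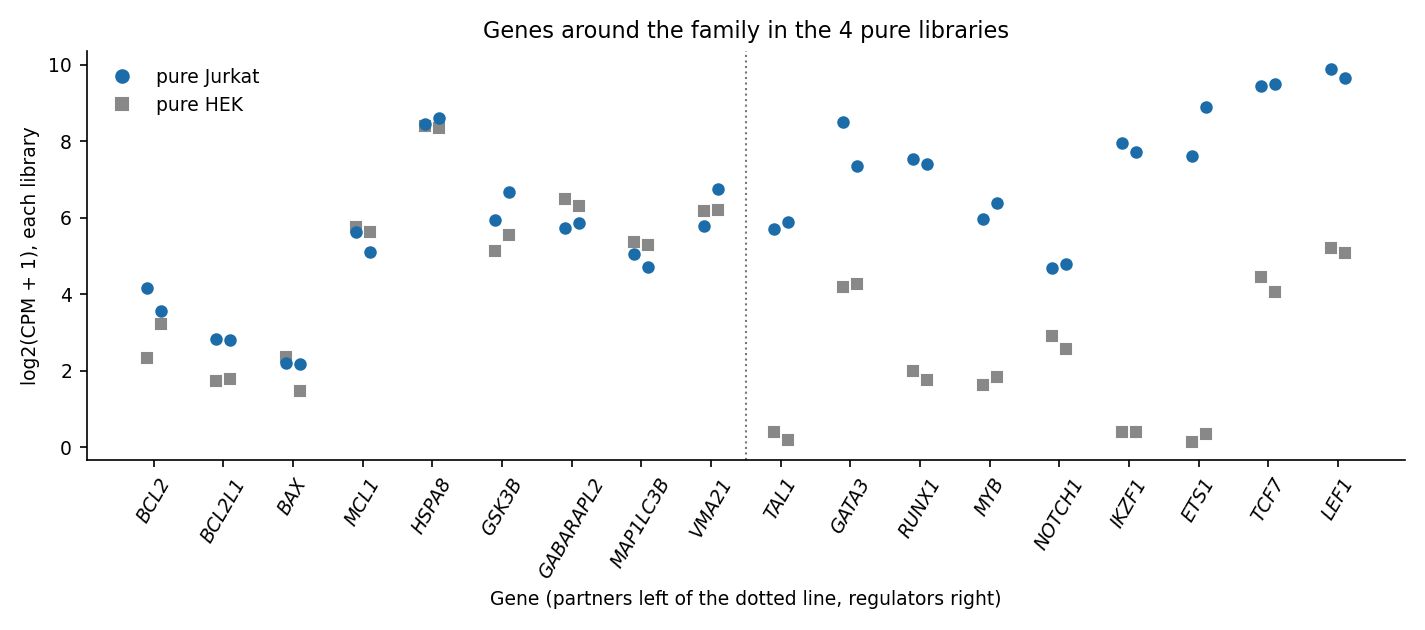
log2(CPM + 1) of 9 partner genes (left of the dotted line) and 9 regulator genes (right) in each of the 2 pure Jurkat (blue circles) and 2 pure HEK (grey squares) libraries. The squares and circles of most partners lie close together or overlap, and those of the 9 regulators are apart.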

How the data were processed

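Reads of HEK-293T and Jurkat libraries were aligned by the authors with STAR 2.6.1b to GRCh38 with ERCC spike-ins added, per the submitters' processing notes. Expected counts per gene were estimated by the authors with RSEM 1.3.1 and deposited without normalization. The annotation release and strand setting are not given in the sources used here, and the effective length deposited with each gene served for TPM over genes only. CPM left the spike-ins out of each library's total. Symbols and coordinates were taken from GENCODE 44.

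Rounded counts of the 4 pure libraries were tested with edgeR 4.0.16 (glmQLFit, glmQLFTest, TMM, filterByExpr, Benjamini-Hochberg adjustment at 0.05), with DESeq2 1.42.0 as an alternative. Departure from additive mixing used the same quasi-likelihood fit with an intercept only and the expected level, at least 0.2 CPM, as offset. It needed 10 expected counts in 5 libraries. glmQLFTest takes no such model, so its F was computed from the fit's deviances. Both steps were first tested on simulated counts.

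The members and lists were chosen with earlier results of these data known. Genes named were the members, genes inside the cluster with counts, called flanking genes and the nearest on each side, at most 5 called genes of each list, and the 5 genes most alike. TMEM176A, AOC1, BCL2, KRBA1 and ZNF467 were added after their values were seen. Depth ran from 4468822 to 28303668 gene counts, and 3 counts were taken as the floor. R 4.3.3 and Python 3.11.15 were used. A further marker list is not reported here.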

Additional observations from a re-analysis of the deposited data

How the results depend on the processing

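Replicate numbers were given in accession order and mark no pairing. No paired analysis was possible because the labels give the libraries no shared number. Regulator genes called stayed at 9 and flanking genes called lay between 5 and 8 in all settings. Partner genes called were 1 with DESeq2 and 1 with library totals only, and ran from 0 to 3 when 1 pure library was left out. All genes called ran from 3131 to 6227 when 1 pure library was left out, with 3194 and 3131 when the first or the second HEK library was left out. Members above or below additive mixing ran from 2 to 4 when 1 library was left out, and all genes from 1950 to 4805. Asking also for a log2 departure beyond 1 left 0 members and 298 genes. A filter of 1 count gave 5692 genes and put GIMAP8 below its expected level, which was the floor of 0.2 CPM with 20% to 50% Jurkat cells. With a floor of 1 CPM, GIMAP6 was not called. With the share from mixed percentages and spike-ins, GIMAP7 and GIMAP4 turned to 0.20 and 0.20 (log2), and with the share from 100 Jurkat-higher genes, an alternative chosen after seeing the data, to 0.00703 and 0.00631, none past the threshold. The median share from the family, 11.1%, became 14.5% as a mean of the members' ratios. Scaling by spike-ins, per which Jurkat had gene counts differing by -3.30 on the log2 scale, put the members' log2 differences between 4.91 and 9.96 and turned none of them. The causes of these changes were not tested. Depth limits GIMAP8 and every HEK value.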
